A study of Bos indicus with 6 samples.

Results

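The genes described here are 9 epithelial keratins, KRT5, KRT7, KRT8, KRT14, KRT15, KRT17, KRT18, KRT19 and KRT23, in the isthmus of the bovine oviduct. They were taken by their gene symbol alone, and each symbol stood on 1 of the 24616 rows of the isthmus table. The tissue came from 6 multiparous Nelore (Bos indicus) cows, with 1 RNA-seq library per cow, collected on day 4 after GnRH-induced ovulation. The 3 cows of the LF/LCL group ovulated a large follicle and carried a large corpus luteum, and the 3 cows of the SF/SCL group had a small follicle and a small corpus luteum. Every cow was given prostaglandin F2α analog and GnRH agonist for pre-synchronization, then a progesterone device with 2 mg of estradiol benzoate on day -10, prostaglandin at device removal and again 6 h later, and GnRH agonist on day 0. LF/LCL cows received an additional prostaglandin injection on day -10, and their device was withdrawn 42 h before GnRH against 30 h in SF/SCL cows. Cows were non-lactating and had been ranked within their group on follicle size, corpus luteum area, estradiol and progesterone, and the LF/LCL cows sequenced were those at the top of the ranking and the SF/SCL cows those at the bottom. The oviduct was taken on the side of the corpus luteum and the samples held the whole thickness of its wall, so that epithelium, stroma, muscle and serosa contributed RNA.

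Keratins are the intermediate filament proteins of epithelial cells. A filament is built from pairs of 1 acidic type I keratin and 1 basic type II keratin, and epithelia are told apart by the pairs they make. KRT8 (type II) and KRT18 (type I) form the primary pair of simple, single-layered epithelia such as that of the oviduct. KRT7 (type II) and KRT19 (type I) join them in ductal and glandular epithelia. KRT5 (type II) and KRT14 (type I) form the pair of the basal cells of stratified epithelia, where KRT15 (type I) is also found, and KRT17 (type I) is induced by injury and stress. KRT23 (type I) is a less studied member of the family. The filaments are anchored to desmosomes by desmoplakin and the plakophilins.

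The libraries held from 23899117 to 34193164 reads, with a median of 27155932. The values are normalized counts, that is, reads counted per gene and divided by the size factor of the library. Of all genes tested between the groups with limma, 0 of 15387 had a Benjamini-Hochberg adjusted p under 0.05 (0.00%), and 1333 (8.66%) had an unadjusted p under 0.05. With edgeR's quasi-likelihood test 0 genes were called after adjustment and 1338 had an unadjusted p under 0.05. SF/SCL cow 489215 stood apart from the other libraries, and the residual SD of a gene around its group mean, on the log2 scale, had a median of 0.43 with it and of 0.18 without it. The differences of the members tested are given with and without this cow, and those of other genes and lists where leaving it out moved them most. The fit that left it out called 2827 of 15495 genes after adjustment (18.2%).

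The simple-epithelium keratins had the highest counts among the members and tended to higher values in SF/SCL. KRT8, KRT18, KRT19 and KRT7 together held 92.2% to 99.2% of the summed normalized count of the 9 members in each library, a share of reads that also depends on transcript length. In normalized counts KRT8, KRT18 and KRT7 were higher in every SF/SCL cow than in every LF/LCL cow, by 1.67-fold, 1.45-fold and 2.94-fold in the ratio of the group means. For KRT18 this separation depended on the size factors, as described below. None of these differences passed the adjusted threshold in limma with 6 cows. KRT23, at far lower counts, was nearly absent from the LF/LCL cows and present in every SF/SCL cow. KRT5 differed between cows more than any other member that had reads in all 6 libraries, and did so across the groups.

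**Figure D1:**
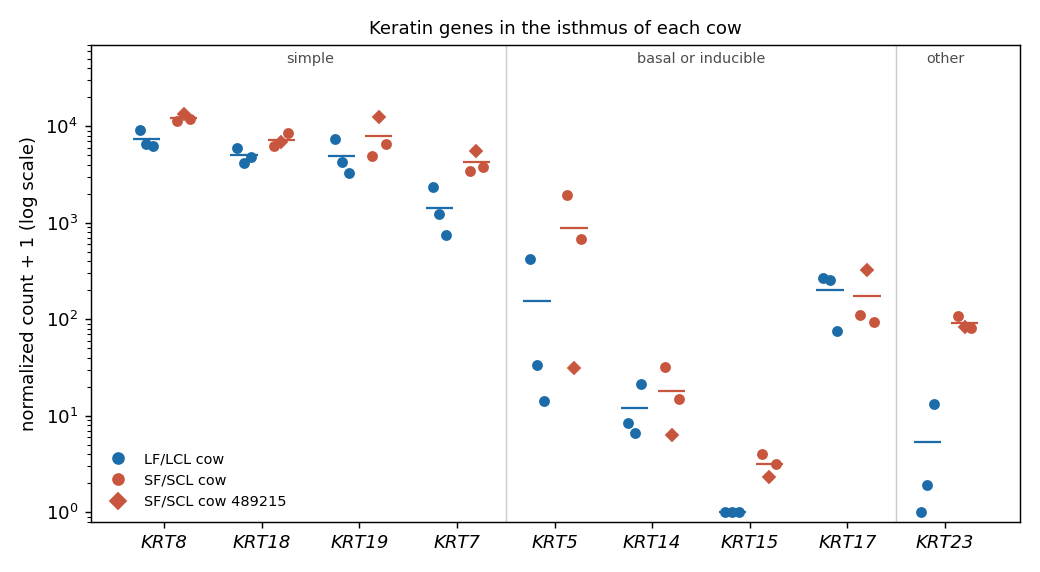
Normalized count + 1 of the 9 keratins on a log axis, where each point is 1 cow and each bar the mean of a group (n = 3). KRT8, KRT18, KRT7 and KRT23 show no overlap of the groups, KRT15 has at most 4 reads in any library, and KRT5 spans 13.2 to 1943 normalized counts.

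KRT8 (ENSBTAG00000000836), the type II keratin of simple epithelia, had normalized counts of 9195, 6558 and 6246 in LF/LCL cows 617, 79 and 527. In SF/SCL cows 856, 489215 and 97 it had 11457, 13358 and 11912. All SF/SCL cows thus lay above the highest LF/LCL cow. The log2 fold change, SF/SCL minus LF/LCL on log2(normalized count + 1), was 0.76 (standard error 0.21, 95% interval 0.25 to 1.27, limma, Benjamini-Hochberg adjusted p = 0.412). Without cow 489215 it was 0.69 (standard error 0.17, limma, Benjamini-Hochberg adjusted p = 0.0386), which passes the threshold as do 10.3% of the genes tested in that fit in the direction of SF/SCL.

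KRT18 (ENSBTAG00000001517), the type I partner of KRT8, had 5988, 4140.3 and 4847 in LF/LCL cows 617, 79 and 527 and 6294, 6791 and 8599 in SF/SCL cows 856, 489215 and 97. The gap between the highest LF/LCL cow and the lowest SF/SCL cow was narrow. Cow 489215 had the lowest size factor, 0.751 against 0.923 to 1.32 in the other libraries, which raised its normalized counts. In reads, KRT18 had 5101 of 25472906 in cow 489215 and 5721 of 25652651 in LF/LCL cow 617. As a share of the reads of the library the groups therefore overlapped. Processed copies of KRT8 and KRT18 are common in mammalian genomes, so reads of either gene could have been lost or split in counting. Its log2 fold change was 0.54 (standard error 0.22, 95% interval 0.02 to 1.06, limma, Benjamini-Hochberg adjusted p = 0.562), and 0.58 without cow 489215 (limma, Benjamini-Hochberg adjusted p = 0.0879).

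KRT7 (ENSBTAG00000016165), a type II keratin of ductal and glandular epithelia, showed the largest difference among the abundant members. It had 2341, 1218 and 743 normalized counts in LF/LCL cows 617, 79 and 527, and 3423, 5507 and 3742 in SF/SCL cows 856, 489215 and 97. The groups did not overlap, and within LF/LCL cow 617 was highest and cow 527 lowest, as for KRT8 and KRT19. The log2 fold change was 1.68 (standard error 0.43, 95% interval 0.64 to 2.73, limma, Benjamini-Hochberg adjusted p = 0.405). The Wald test of DESeq2 on the recovered reads gave 1.56 (DESeq2, Benjamini-Hochberg adjusted p = 0.0436), where 2.66% of genes were called and 1.32% were called higher in SF/SCL. Without cow 489215 the limma value was 1.48 (limma, Benjamini-Hochberg adjusted p = 0.0601).

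KRT19 (ENSBTAG00000004905), the smallest type I keratin, which lacks most of the tail domain, had 7332, 4274 and 3270.1 in LF/LCL cows 617, 79 and 527. In SF/SCL cows 856, 489215 and 97 it had 4858, 12551 and 6602. The groups overlapped, since LF/LCL cow 617 lay above SF/SCL cows 856 and 97, and cow 489215 was far above all others. The log2 fold change of 0.66 (95% interval -0.40 to 1.71, limma, Benjamini-Hochberg adjusted p = 0.771) was 0.28 without cow 489215.

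Of the 9 members, 6 passed the filter on low and variable values (a mean above 5 and above the SD over the 6 libraries). Among these, 3 had an unadjusted p under 0.05 from limma, namely KRT7, KRT8 and KRT18, all higher in SF/SCL, against 4.19% of all genes tested. With edgeR's quasi-likelihood test KRT18 missed this mark and KRT7 and KRT8 met it, where 8.7% of genes did so in either direction and 4.2% higher in SF/SCL. In DESeq2 KRT7, KRT8 and KRT18 met it, beside 6.1% of genes higher in SF/SCL. The median log2 fold change of the 6 members was 0.60, beside -0.02 over all genes tested. Separate ranges of normalized counts in LF/LCL and SF/SCL were seen for 3 of the 6, all higher in SF/SCL, and for 18.1% of all genes tested, 9.51% being higher in SF/SCL.

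**Figure D2:**
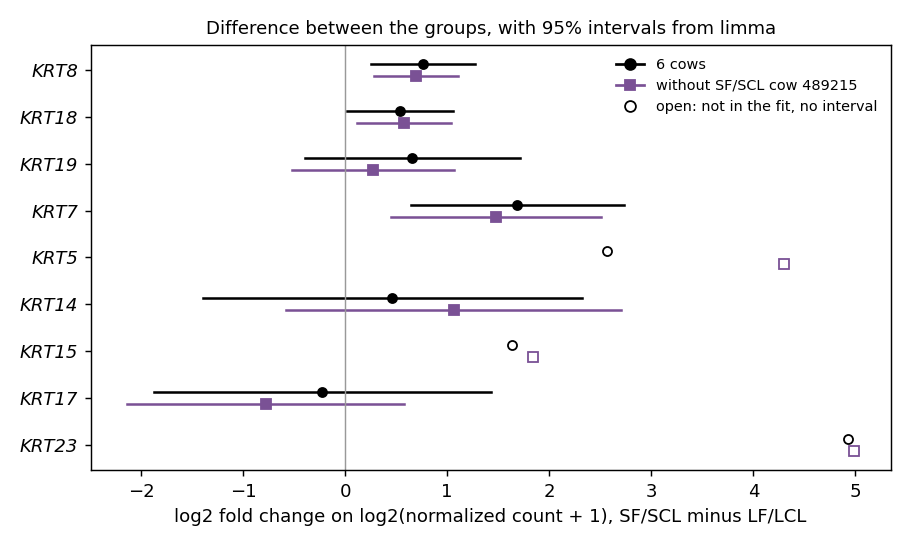
Log2 fold change of each keratin, SF/SCL minus LF/LCL on log2(normalized count + 1), for 6 cows and without SF/SCL cow 489215, with 95% intervals from limma for the genes in the fit and open symbols for genes that missed the filter. KRT8, KRT18 and KRT7 have intervals above 0 in both fits, KRT17 and KRT14 have intervals across 0, and KRT5 goes from 2.57 to 4.30 when the cow is left out. The symbols of KRT15 rest on at most 4 reads in a library and are not interpreted.

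KRT23 (ENSBTAG00000040460) had 0, 1 and 14 reads in LF/LCL cows 617, 79 and 527, and 141, 61 and 74 reads in SF/SCL cows 856, 489215 and 97. As normalized counts these are 0, 0.939 and 12.3 against 107, 81.2 and 80.2. The lowest SF/SCL cow was above the highest LF/LCL cow, and cow 489215 lay with its group. Of all genes with a mean above 5, 9.52% were likewise higher in every SF/SCL cow. The 0 reads of cow 617 allow up to 3 reads, for counting error alone. KRT23 missed the filter because its SD over the 6 libraries (47.8) exceeded its mean (46.96). Its log2 fold change was 4.92, and 4.99 without cow 489215, on a scale where the pseudocount of 1 weighs heavily at such low counts. With a mean of 4.41 in LF/LCL and 89.5 in SF/SCL it would meet a filter on the mean alone only through the group in which it was high, so these values are given as a description with no test.

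The basal-type keratins did not share a pattern. KRT5 (ENSBTAG00000038384), the basal-cell type II keratin, had normalized counts of 419.7, 32.9 and 13.2 in LF/LCL cows 617, 79 and 527. It had 1943, 30.6 and 683 in SF/SCL cows 856, 489215 and 97. SF/SCL cows 856 and 97 were thus the highest and LF/LCL cow 617 came next, while cow 489215 lay among the low LF/LCL cows, and the highest library exceeded the lowest 147-fold. KRT5 missed the filter for its spread, and with the filter on the mean alone its log2 fold change of 2.57 had a 95% interval from -1.87 to 7.00 (limma, Benjamini-Hochberg adjusted p = 0.783). In that fit 0 of 15922 genes passed after adjustment, and 4.35% were higher in SF/SCL at an unadjusted p under 0.05. Cow 489215 was the only SF/SCL cow within the range of LF/LCL, so leaving it out separates the groups by itself. In the same kind of fit without this cow the value was 4.30 (standard error 1.37, limma, Benjamini-Hochberg adjusted p = 0.0781), where 10.8% of genes passed in that direction.

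KRT14 (ENSBTAG00000007583), the usual partner of KRT5, stayed low throughout, with 7, 6 and 23 reads in LF/LCL cows 617, 79 and 527 and 41, 4 and 13 reads in SF/SCL cows 856, 489215 and 97. Its log2 fold change was 0.46 (95% interval -1.39 to 2.32, limma, Benjamini-Hochberg adjusted p = 0.908), and it was 1.06 without cow 489215. The sign turned when cow 856 was left out (-0.11). KRT15 (ENSBTAG00000004903) had 0 reads in each LF/LCL cow and 4, 1 and 2 reads in SF/SCL cows 856, 489215 and 97, so close to the 3 reads that a count of 0 allows that no fold change is given.

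KRT17 (ENSBTAG00000006806), the injury-inducible type I keratin, was the only member with a lower group mean in SF/SCL. It had 268, 255 and 74.7 normalized counts in LF/LCL cows 617, 79 and 527 and 109, 320 and 92.1 in SF/SCL cows 856, 489215 and 97, the values of the groups being interleaved. The log2 fold change was -0.22 (95% interval -1.87 to 1.43, limma, Benjamini-Hochberg adjusted p = 0.952), and it was -0.78 without cow 489215. KRT14, KRT16 and KRT17 are closely similar in sequence and reads that map to several places were not counted, so the division of reads among them is uncertain.

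Counts of different genes are not levels of expression on 1 scale, because transcript lengths were not used here. The ratio of a pair within a library does not need them when it is compared between libraries. The log2 ratio of KRT8 to KRT18 was 0.62, 0.66 and 0.37 in LF/LCL cows 617, 79 and 527 and 0.86, 0.98 and 0.47 in SF/SCL cows 856, 489215 and 97. The groups overlapped, and over the 6 cows the SD of this ratio was 0.23, less than that of the log2 value of KRT8 (0.46) or KRT18 (0.37) alone. The ratio of KRT7 to KRT19 had a smaller SD (0.62) than KRT7 (1.09) and one little below that of KRT19 (0.68) alone. Other ratios went the other way. That of KRT7 to KRT8 had an SD of 0.64, more than KRT8 alone, and that of KRT19 to KRT18 one of 0.54, more than KRT18 alone. The ratio of KRT8 to the summed general epithelial markers described below had an SD of 0.18.

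The log2 ratio of KRT7 to KRT19 was -1.65, -1.81 and -2.14 in LF/LCL cows 617, 79 and 527 and -0.51, -1.19 and -0.82 in SF/SCL cows 856, 489215 and 97. Here the groups did not overlap, and the difference of 1.03 was 1.20 without cow 489215. KRT7 made up 9.16%, 7.39% and 4.88% of the summed count of the 9 members in LF/LCL cows 617, 79 and 527, and 12.1%, 14.2% and 11.8% in SF/SCL cows 856, 489215 and 97. The log2 ratio of KRT5 to KRT14 ran from -0.58 in LF/LCL cow 527 to 5.92 in SF/SCL cow 856, with 5.66 in LF/LCL cow 617 and 2.32 in SF/SCL cow 489215, so that this pair did not keep a fixed proportion. These ratios were given without a test.

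**Figure D3:**
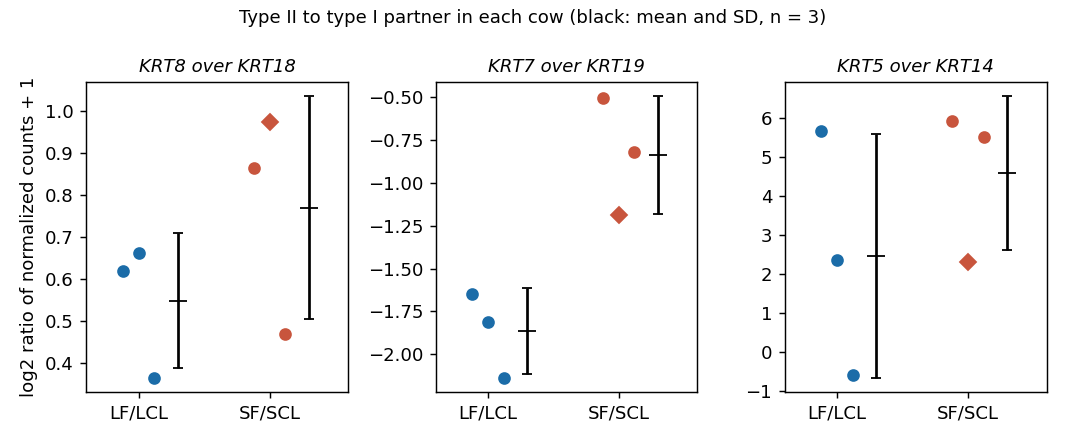
Log2 ratio of the type II to the type I keratin of 3 pairs, from normalized counts + 1, where each point is 1 cow, the diamond is SF/SCL cow 489215 and the black bars are mean and SD (n = 3). KRT7 over KRT19 is at -1.19 or above in all SF/SCL cows and at -1.65 or below in all LF/LCL cows, while the other pairs overlap.

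The 9 members together had a summed normalized count of 25551, 16485 and 15226 in LF/LCL cows 617, 79 and 527 and of 28225, 38644 and 31726 in SF/SCL cows 856, 489215 and 97. This was 0.0715% ± 0.0205 of all counts in LF/LCL and 0.115% ± 0.00697 in SF/SCL (mean ± SD, n = 3 each), without overlap between the groups. Other epithelial genes lay higher in SF/SCL as well, though none passed in limma after adjustment. Of 20 general epithelial markers chosen without keratins, 17 were found and tested, 13 had a positive log2 fold change and the median was 0.39, with 6 of the 17 higher in SF/SCL at an unadjusted p under 0.05 from limma (4.19% of all genes) and 0 after adjustment. EPCAM (ENSBTAG00000006474), an adhesion molecule of epithelial cells, had 12286, 9925 and 8530 in LF/LCL cows 617, 79 and 527 and 15871, 20313 and 18854 in SF/SCL cows 856, 489215 and 97. Its log2 fold change was 0.85. RAB25, a small GTPase of epithelial cells, went the other way in SF/SCL cows 856 and 97, with 873 and 1076 normalized counts against 4774 in cow 489215 and 2952 to 3341 in LF/LCL. The log2 fold change was -0.94 with all cows and -1.71 without cow 489215 (limma, Benjamini-Hochberg adjusted p = 0.0021). In that fit 6 of the 17 markers passed higher in SF/SCL and 2 lower, RAB25 and ST14, beside 10.3% and 7.92% of all genes. In bulk tissue, fewer cells of a type and less RNA per cell cannot be told apart, and the part of epithelial content in the keratin differences was not tested.

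Set against the summed general epithelial markers of the same library, a measure added after the values were seen, the members differed. The log2 ratio of KRT18 to this sum had group means of -3.42 ± 0.21 in LF/LCL and -3.39 ± 0.37 in SF/SCL (SD, n = 3 each), a difference of 0.03. Without cow 489215 it was 0.20. For KRT8 the difference was 0.25, or 0.32 without cow 489215, the only SF/SCL cow that lay within the range of LF/LCL. For KRT19 it was 0.15 and turned to -0.10 without cow 489215. For KRT7 the ratio was -4.68, -5.43 and -5.98 in LF/LCL cows 617, 79 and 527 and -4.30, -4.04 and -4.21 in SF/SCL cows 856, 489215 and 97. The groups did not overlap, and the difference was 1.18, or 1.10 without cow 489215.

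**Figure D4:**
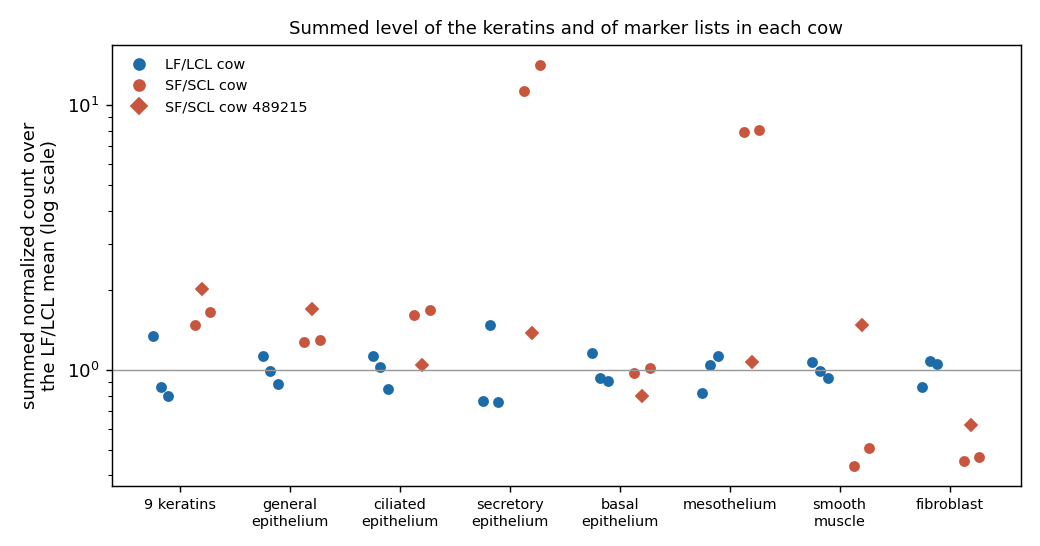
Summed normalized count of the 9 keratins and of marker lists in each cow, divided by the mean of the LF/LCL cows, on a log axis. The keratins and the general epithelial markers are higher in all 3 SF/SCL cows. Secretory sums, mostly OVGP1 in SF/SCL cows 856 and 97, and mesothelial sums are high in these cows only. Smooth muscle is lowest in these cows and highest in cow 489215.

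Markers of other cell types also differed between the libraries. The summed smooth muscle markers ran from 808563 to 926324 in LF/LCL and were 375799 and 436809 in SF/SCL cows 856 and 97, but 1275160 in cow 489215. Fibroblast markers summed to between 323446 and 407172 in LF/LCL and to between 170599 and 232654 in SF/SCL. Of 10 mesothelial markers, a cell type of the serosa that also makes simple keratins, 9 were found. MSLN had 17590 and 18098 normalized counts in SF/SCL cows 856 and 97, 2299 in cow 489215 and 808 to 1871 in LF/LCL. WT1 had 8611 and 7984 in cows 856 and 97, 1037 in cow 489215 and 1180.5 to 1302 in LF/LCL, whereas the mesothelial gene LRRN4 was lower in every SF/SCL cow (3.80 to 16.3) than in LF/LCL (175 to 412). CALB2, another mesothelial marker, had at most 6.84. The secretory markers summed to 295247 and 369923 in SF/SCL cows 856 and 97 and to between 19624 and 38548 in the other 4 cows. Most of this sum in cows 856 and 97 was OVGP1, the oviductal glycoprotein. It had 271794 and 325158 in these cows and 287 to 1950 in the other 4 cows. MUC16 was also higher in cows 856 and 97 (4052 and 6906, against 268 to 470). MSX1 was lower there (125 and 461, against 1228 to 2739). The part of these cell types in the keratin values was not tested.

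The defining gene of basal epithelial cells was at or near 0 in every library. TP63, the transcription factor that maintains basal cells and drives KRT5 and KRT14 in stratified epithelia, had normalized counts from 0 to 2.28. Of the 12 basal markers, all were found and 10 tested, 3 with a positive and 7 with a negative log2 fold change, and their median was -0.53. At an unadjusted p under 0.05 from limma 4 were lower in SF/SCL, namely PKP1, BNC1, NGFR and LAMB3, and 0 were higher, where 4.48% of all genes were lower. Without cow 489215 the median was -0.15, with 2 of the 10 called higher and 3 lower after adjustment. COL17A1, a collagen of the hemidesmosome, followed KRT5 in part, with 791 and 567 in SF/SCL cows 856 and 97 and 13.1 to 27.2 in the other 4 cows, LF/LCL cow 617 (27.2) included.

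The genes that anchor keratins to desmosomes differed in direction. Among 17 linker and partner genes, 16 symbols were found and 16 rows tested, of which 8 had a positive and 8 a negative log2 fold change, with a median of -0.01. Without cow 489215 the median was 0.32, with 5 called higher and 1 lower after adjustment. JUP (plakoglobin) had 7806, 6850 and 5842 in LF/LCL cows 617, 79 and 527 and 10030, 9924 and 13607 in SF/SCL cows 856, 489215 and 97, a log2 fold change of 0.71. PKP2, the plakophilin of simple epithelia and heart, likewise had no overlap, with 2229 to 2802 in LF/LCL and 3368 to 4643 in SF/SCL. PKP1, the plakophilin of stratified epithelia, went the other way, with 454 to 604 in LF/LCL and 111 to 194 in SF/SCL.

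For PKP1 the difference on the log2 scale was -1.96 (standard error 0.31, limma, Benjamini-Hochberg adjusted p = 0.351). Without cow 489215 all of JUP, PKP2 and PKP1 passed the threshold (limma, Benjamini-Hochberg adjusted p = 0.027, 0.0416 and 0.0024). DSP (desmoplakin) had 24582 and 24969 in SF/SCL cows 856 and 97 but 8187 in cow 489215, against 9503 to 13278 in LF/LCL. On the log2 scale it differed by 0.59, and it passed the threshold without cow 489215 (limma, Benjamini-Hochberg adjusted p = 0.00608). The desmosomal cadherin DSG3 of stratified epithelia was lower in SF/SCL (9.12 to 28.0) than in LF/LCL (69.4 to 172), with a log2 fold change of -2.46, or -2.72 without cow 489215 (limma, Benjamini-Hochberg adjusted p = 0.024). Among the 7 desmosomal cadherins, 6 were tested, 1 had an unadjusted p under 0.05 and their median was -0.29, or 0.02 without cow 489215. DSG2 and DSC2, which had the highest counts of the list, had log2 fold changes of -0.10 and 0.00, or 0.03 and 0.01 without cow 489215.

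Other intermediate filament genes showed a median log2 fold change of -0.23 over 12 tested. VIM, of mesenchymal cells, and DES, of muscle, overlapped between the groups through cow 489215 alone (-0.65 and -0.47). Without it they were -1.03 and -1.02 and passed the threshold (limma, Benjamini-Hochberg adjusted p = 0.0027 and 0.0136), and 4 of the 12 passed, all lower in SF/SCL. SYNM (synemin) and NES (nestin) were lower in SF/SCL without overlap (-1.37 and -1.13, both with an unadjusted p under 0.05 from limma and 0 adjusted). Of 12 epithelial transcription factors 9 were tested, 0 had an unadjusted p under 0.05 and the median was 0.01, or -0.35 without cow 489215, where 2 passed higher and 1 lower. TFAP2A and TFAP2C missed the filter for their spread and are given without a test. Both were higher in every SF/SCL cow (22.0 to 186 and 79.9 to 365) than in LF/LCL (2.09 to 6.57 and 11.3 to 55.3). So were 9.52% of all genes with a mean above 5. KLF5 and ELF3 (-0.17 and -0.54) and EHF (0.57) each overlapped between the groups. Without cow 489215 these were -0.54, -1.09 and 1.61, of which EHF passed (limma, Benjamini-Hochberg adjusted p = 0.00537). Of 11 genes of the cornified envelope, the outer shell of stratified cells, 10 were found and 3 passed the filter, with a median of -0.12. Without cow 489215 TGM3 missed the filter and was not tested, and another gene entered. The median there, -0.56 with 0 genes called, is therefore of a different set of 3 genes and is not comparable. The 10 genes together summed to at most 159.5 in any library. TGM3, an epidermal transglutaminase, had 124, 33.3 and 88.9 in SF/SCL cows 856, 489215 and 97 and 12.2 to 15.7 in LF/LCL, a log2 fold change of 2.26, and TGM1 had -0.49.

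Beyond the 9 members, 40 other rows of the table carry a keratin symbol. Of these, 20 had 0 reads in all 6 libraries, 12 had a mean of at most 4.31, and 8 had a mean above 5 and were tested. KRT9 (ENSBTAG00000047165), known from the epidermis of palms and soles, had 3103, 3127 and 1098 normalized counts in LF/LCL cows 617, 79 and 527. It had 5484, 1861 and 5812 in SF/SCL cows 856, 489215 and 97. KRT9 was thus highest in SF/SCL cows 856 and 97 and its log2 fold change of 0.83 (limma, Benjamini-Hochberg adjusted p = 0.794) was 1.36 without cow 489215.

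KRT80, a type II keratin of many epithelia, ranged from 1021 to 2195 and had a log2 fold change of 0.03, and KRT10, of suprabasal epidermis, ranged from 244 to 905 with 0.17. Both signs turned without cow 489215, to -0.27 and -0.35. KRT24 was lower in SF/SCL (8.36 to 33.3) than in LF/LCL (33.5 to 84.5), the nearest cows of the groups being almost level, with a log2 fold change of -1.66 that passed the threshold without cow 489215 (-2.10, limma, Benjamini-Hochberg adjusted p = 0.0478). KRT72, of the hair root sheath, had 19.3 to 72.3 in LF/LCL and 0 to 32.0 in SF/SCL, with overlapping groups (-3.43, or -4.89 without cow 489215). These were the family members outside the 9 with an unadjusted p under 0.05 from limma. KRT16, an inducible type I keratin, was higher in every SF/SCL cow (9.32 to 10.8) than in LF/LCL (1.05 to 7.91), on at most 14 reads in a library. Its mean was 4.55 in LF/LCL and 10.3 in SF/SCL. It met the filter only through SF/SCL, so its values are given as a description with no test. KRT78 (4.39 to 67.2) and KRT222 (4.34 to 9.66) overlapped between the groups.

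In a RefSeq gene table of another assembly (NIAB-ARS_B.indTharparkar, Bos indicus), used for gene order only, 5 of the 9 members were found by symbol. KRT18 and KRT8 are separated there by 1 listed gene, KRT8 is followed by KRT78, and KRT19 by KRT9. The neighbours did not share a pattern with these members in every cow, since KRT78 was highest in SF/SCL cow 97 and KRT9 was low in cow 489215, where KRT19 was highest.

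The genes with a pattern most like the leading member of each class were found by Pearson's r of log2(normalized count + 1) over the 6 libraries, among tested genes with a mean of at least 100. The values are a description, since the cows fall into groups and cow 489215 stands apart. For KRT8 they were the unnamed gene ENSBTAG00000008858 (r = 0.997), DYNLRB2, a dynein light chain (r = 0.997), and BTG3 (r = 0.995), and KRT7 stood 13th of 12513 genes (r = 0.984). KRT18 had an r of 0.870 with KRT8 and KRT19 one of 0.797. For KRT5 the nearest genes were C11H9ORF9 (r = 0.993), MYB (r = 0.979) and PKP3, a plakophilin (r = 0.977). For KRT23 they were SUMF1 (r = 0.994), MRPL19 (r = 0.992) and PANK4 (r = 0.984), the highest of 12514 genes. KRT23 itself missed the filter, as KRT5 did. The 0 and 1 reads of KRT23 in LF/LCL cows 617 and 79 lie within counting error, so its order there is uncertain. DYNLRB2 had 1502, 1010 and 953 in LF/LCL cows 617, 79 and 527 and 2107, 2343 and 2053 in SF/SCL cows 856, 489215 and 97, the order of the cows being that of KRT8 but for cows 856 and 97.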

How the data were processed

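Polyadenylated RNA of isthmus tissue was sequenced as paired ends. The authors cleaned the reads (seqyClean), mapped them to the UMD 3.1 bovine assembly with TopHat2 2.0.8 and Bowtie2 2.1.0, used HTSeq 0.5.4p2 to count the reads with a single mapped place in each Ensembl gene and divided the counts by size factors from DESeq 1.12.1. The strand setting is not given in the sources used here. The deposited values are these normalized counts (a signal, not counts), and 100% of the 147696 values were whole multiples of 1 step per library within 0.0011, which gave back whole reads.

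Groups and cow numbers were taken from the sample titles. A gene whose mean over the 6 libraries exceeded both 5 and its SD was tested with limma 3.58.1 in R 4.3.3 (trend and robust) on log2(value + 1), SF/SCL minus LF/LCL, two-sided, with Benjamini-Hochberg adjustment over all genes tested and a threshold of 0.05. edgeR 4.0.16 and DESeq2 1.42.0 on the recovered reads, other pseudocounts and filters, TMM rescaling, limma without trend and leaving out each cow were alternatives, and the tests were tried on simulated counts. A fold change on this scale understates the change of low genes. No batch is named in the labels.

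Named genes were the 9 members, other keratin rows with a mean above 5 and the nearest genes by r. Of each gene list, those eligible were the 2 with the highest mean count, the 2 with the largest fold change and up to 4 with an unadjusted p under 0.05. Not every eligible gene is named in the text. COL17A1, TP63, LRRN4, CALB2, ST14, MUC16, LTF, TFAP2A, TFAP2C, FOXJ1, DNAH5, DNAI2, TP73 and TEKT1 were named outside this rule, after their values were seen. The members and lists were chosen with earlier results of these data known. No positions or sequences are given, since no genome or sequence table of the build was used here. Counting limits cover counting error only. No member shares its symbol with another row.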

Additional observations from a re-analysis of the deposited data

How the results depend on the processing

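The count of genes past the threshold was 0 with 6 cows in limma, 409 with DESeq2, from 0 to 2827 when each cow was left out (2827 without SF/SCL cow 489215 and 0 without any other), and 2955 without this cow and with the filter on the mean alone, an alternative chosen after seeing the data. The count of keratin members past it was 0 in limma, 1 with DESeq2 (KRT7) and from 0 to 1 when each cow was left out (KRT8, without cow 489215). Without this cow and with the filter on the mean alone it was 2, KRT8 and KRT23. KRT23 met that filter only through SF/SCL, so its place in this count is not read as a test. For both counts the other pseudocounts, filters, TMM rescaling, limma without trend and edgeR gave 0. KRT7, KRT8, KRT18 and KRT19 kept a positive log2 fold change in all 15 alternatives, from 1.29 to 2.12, 0.65 to 0.93, 0.41 to 0.68 and 0.28 to 0.98. Over the cows left out, that of KRT17 ran from -0.82 to 0.11 and that of KRT14 from -0.11 to 1.06. That of KRT17 was 0.09 without LF/LCL cow 617, 0.06 without LF/LCL cow 79 and 0.11 without SF/SCL cow 97, and that of KRT14 was -0.11 without SF/SCL cow 856. The cause of these changes was not tested. KRT23 entered 6 of the alternatives, with 4.14 to 6.01. The group difference in the log2 ratio ran, over the cows left out, from 0.86 to 1.20 for KRT7 to KRT19, from 0.12 to 0.37 for KRT8 to KRT18 and from 0.58 to 3.70 for KRT5 to KRT14. As a share of all keratin-family counts, the 9 members differed by 2.01 percentage points in place of 0.0435 of all counts, and by -0.58 without cow 489215, the sign having turned. KRT14 and KRT15 were limited by depth. No paired analysis was possible because the cow numbers of the groups differ.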

Other observations

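Ciliated cell markers, which belong to the same simple epithelium as KRT8 and KRT18, followed the keratins in part. Of 15 markers 11 were tested, 9 had a positive log2 fold change with a median of 0.52, 2 had an unadjusted p under 0.05 from limma and 0 an adjusted one, while 9 passed without SF/SCL cow 489215, all higher in SF/SCL, beside 10.3% of all genes, with a median of 1.04. TPPP3, a tubulin-binding protein of ciliated cells, had 7552 to 11025 normalized counts in LF/LCL and 17185 to 19670.1 in SF/SCL, and DNAI1, an axonemal dynein chain, had 475 to 588 and 783 to 1621. The other tested markers, CAPS among them, overlapped between the groups. In cow 489215, where the normalized count of KRT8 was highest, the summed ciliated markers (47460) lay within the range of LF/LCL (38400 to 51145). As a share of reads KRT8 was not highest there, with 10033 of 25472906 reads against 10991 of 23899117 in SF/SCL cow 97. SF/SCL cows 856 and 97 had 73046 and 76125. FOXJ1, DNAH5, DNAI2, TP73 and TEKT1 were lower in cow 489215 than in every LF/LCL cow, while TPPP3 and DNAI1 were higher.

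The non-epithelial lists lay lower in SF/SCL for most tested genes. Of the fibroblast markers, all 10 tested had a negative log2 fold change, with a median of -0.93 and 7 with an unadjusted p under 0.05 from limma, among them COL1A1 and COL3A1, where 4.48% of all genes were lower at this mark. Of 9 smooth muscle markers all were negative with a median of -0.60, and 2 had an unadjusted p under 0.05, MYLK and SYNPO2. Without cow 489215, where 7.92% of all genes were called lower, 9 of the 10 fibroblast and 7 of the 9 smooth muscle markers were called lower, with medians of -0.94 and -1.02. The endothelial median was -0.25 over 9 tested, with CDH5 alone at an unadjusted p under 0.05, and -0.47 without cow 489215, with 4 called lower. The leukocyte median was -0.33 over 9 tested (-0.07 without cow 489215, with 0 called), with 0 at an unadjusted p under 0.05, and PTPRC ranged from 525 to 1064. The secretory median was 0.05 over 7 tested, OVGP1, MUC16 and LTF having missed the filter, and 0.06 without cow 489215 with 2 called higher and 1 lower, and WFDC2 had 29355 in SF/SCL cow 489215 against 4795 to 7166 in the other 5 cows, its log2 fold change of 0.82 being 0.06 without this cow. In the mesothelial list 2 genes were tested, BNC1 and GPM6A, both lower in SF/SCL with an unadjusted p under 0.05. They do not stand for the list, since MSLN and WT1, among others, missed the filter through their spread. Without cow 489215 4 of its genes were tested, of which WT1 was called higher (2.73, limma, Benjamini-Hochberg adjusted p = 0.000534) and BNC1, GPM6A and LRRN4 lower. No gene of these lists passed the adjusted threshold in limma with 6 cows.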
